A study of Homo sapiens with 27 samples.

Results

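The 9 genes described here encode enzymes of thymidylate supply, deoxynucleotide supply and fluoropyrimidine metabolism: TYMS, TK1, DUT, RRM1, RRM2, UMPS, TYMP, UPP1 and DPYD. They were taken by symbol from the Entrez gene identifiers of the count table, where each had 1 row, so that they were 9 of 24566 rows. The libraries came from 2 established human cancer cell lines, A431 from an epidermoid carcinoma and MDA-MB-231 from an adenocarcinoma, and all were collected at 48 h. MDA-MB-231 cells were untreated, treated with 5-fluorouracil (5-FU) at 10 ug/ml, with Compound Kushen Injection (CKI, a plant extract preparation) at 1.0 mg/ml, or with CKI plus 5-FU. A431 cells were untreated, given a vehicle control of a composition the labels do not state, treated with the same CKI concentration, with doxorubicin (the labels do not tie a dose to a sample) or with CKI plus doxorubicin. Each of the 9 groups had 3 libraries, described by the submitters as biological replicates, and only MDA-MB-231 cells received 5-FU.

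Thymidylate is made from deoxyuridylate by thymidylate synthase, encoded by TYMS, or salvaged from thymidine by the cytosolic thymidine kinase encoded by TK1. DUT encodes the dUTPase that breaks down dUTP and yields deoxyuridylate, while RRM1 and RRM2 encode the large and the small subunit of the ribonucleotide reductase used in proliferating cells. 5-FU is a uracil analogue that cells convert to nucleotides by way of UMPS (which joins uracil-like bases to a ribose phosphate, and makes UMP in normal synthesis), UPP1 (uridine phosphorylase) and TYMP (thymidine phosphorylase). One of its products binds and inhibits thymidylate synthase. DPYD encodes dihydropyrimidine dehydrogenase, which carries out the first step of uracil, thymine and 5-FU breakdown.

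On hg19, with GENCODE models, TYMS lies at chr18:657653-673578 on the plus strand, TK1 at chr17:76170172-76183314 on the minus strand and DUT at chr15:48623208-48635570 on the plus strand. RRM1 is at chr11:4115937-4160162 and RRM2 at chr2:10260825-10351851, both on the plus strand. UMPS is at chr3:124449280-124468120 (plus), TYMP at chr22:50964181-50968461 (minus), UPP1 at chr7:48128225-48148333 (plus) and DPYD at chr1:97543299-98460556 (minus). All 9 are protein-coding, and how reads were assigned to them is not given in the sources used here.

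Promoters are shown because the genes of thymidylate and deoxynucleotide supply moved together in several comparisons below. The 250 bases before each RefSeq start (build GRCh38.p14) were searched on both strands for the letters CCAAT and for the E2F-type letters TTTCCCGC, TTTCGCGC, TTTGCCGC and TTTGGCGC, which do not overlap CCAAT. All 9 genes matched a RefSeq entry, with 18 start sites in all. E2F-type letters were present in the windows of TYMS and DUT, 2 of 9 genes, and in 4.28% of 17555 genes of the count table that had a window. CCAAT was found in the windows of TK1, RRM1, RRM2 and TYMP, 4 of 9 genes, against 39.38% of all those genes. The single TYMS window, chr18:657403-657652 on the plus strand, is printed with its E2F-type match in capitals, on the opposite strand and beginning 39 bases before the start:
TYMS: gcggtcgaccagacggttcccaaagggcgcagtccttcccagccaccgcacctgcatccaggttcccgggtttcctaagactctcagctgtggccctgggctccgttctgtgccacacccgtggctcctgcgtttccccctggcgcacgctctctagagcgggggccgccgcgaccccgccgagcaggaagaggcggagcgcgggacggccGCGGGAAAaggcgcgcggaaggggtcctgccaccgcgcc

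The DUT stretch before RefSeq start 4 of that gene, chr15:48332152-48332181 on the plus strand, held 2 such matches (in capitals), and the single RRM1 window, chr11:4094435-4094684 on the plus strand, held 1 CCAAT (in capitals):
DUT: ctgGCGGGAAAtttcggtTTTGGCGCgctc
RRM1: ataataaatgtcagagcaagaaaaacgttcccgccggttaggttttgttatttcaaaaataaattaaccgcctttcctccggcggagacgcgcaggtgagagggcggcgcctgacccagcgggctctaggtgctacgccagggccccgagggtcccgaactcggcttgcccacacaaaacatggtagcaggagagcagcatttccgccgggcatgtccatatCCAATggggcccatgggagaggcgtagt

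TYMS, DUT, UMPS, UPP1 and DPYD had no CCAAT in their windows. RRM2 and TK1 had several CCAAT boxes before their second RefSeq start. For RRM2 these were chr2:10122609-10122632, chr2:10122639-10122662 and chr2:10122666-10122689 on the plus strand, beginning 123, 93 and 66 bases before the start. For TK1 they were chr17:78187113-78187136 and chr17:78187082-78187105 on the minus strand, where the box reads in reverse, 77 and 46 bases before the start. The box is in capitals in each stretch of 24 bases:
RRM2, 123 bases before: ggcgcagCCAATgggaagggtcgg
RRM2, 93 bases before: ggcacagCCAATgggaagggccgg
RRM2, 66 bases before: accaaagCCAATgggaagggccgg
TK1, 77 bases before: ggcgctgATTGGccccatggcggc
TK1, 46 bases before: gctcgtgATTGGccagcacgccgt
The 3 RRM2 boxes stand in closely similar surroundings, as the printed letters show. These matches describe letters only.

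The 27 libraries held 17757206 to 22809339 counts each. Levels are given as CPM (edgeR's library-scaled counts, relative to the total count of a library) after TMM scaling over all libraries, with the SD over 3 libraries, and levels of different genes are compared per kilobase of the canonical transcript (RPKM). A gene rose or fell where the adjusted p (Benjamini-Hochberg, edgeR quasi-likelihood test over all genes) was under 0.05, and was differentially expressed (DE) where the absolute log2 fold change also exceeded 1. The libraries matched their line's markers: in untreated cells KRT5 had 3450.2 to 3777 CPM in A431 and at most 0.104 CPM in MDA-MB-231, while VIM had 6.21 to 8.24 CPM and 1595 to 1964 CPM. CDH5, an endothelial cadherin, had up to 29.2 CPM in A431 libraries, and CAV1 did not separate the lines. Replicate 1 of untreated MDA-MB-231 cells stood apart, with a rank correlation of -0.67 between gene GC content and its deviation from the other 2 libraries. There 7 of the 9 genes were at the highest of the 3 untreated values, and TK1 and TYMP, with the highest exon GC content of the 9 (62.8% and 60.3%), at the lowest. Changes of the 9 genes that use this library, and listed DE genes near the limit, are therefore also given without it, the latter by a choice made after seeing the data. In bulk RNA, fewer cells of a kind and less RNA per cell cannot be told apart.

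**Figure D1:**
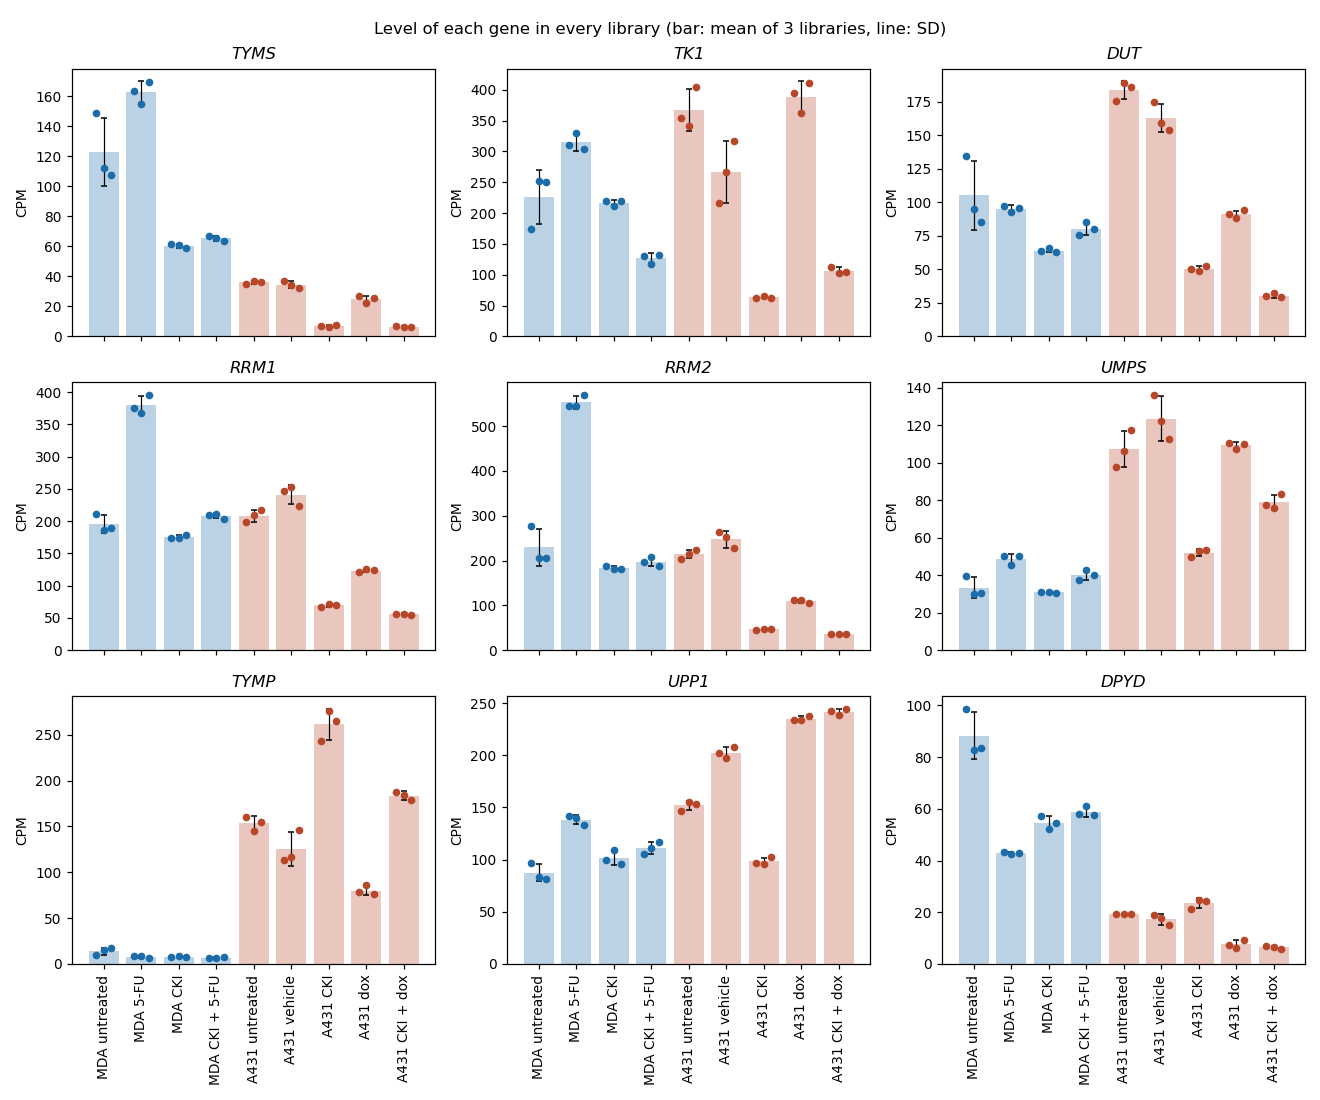
Level of each of the 9 genes in CPM (linear axis from 0) in 27 libraries, with the 4 MDA-MB-231 groups in blue and the 5 A431 groups in red; points are libraries, bars the mean of 3 and black lines the SD. RRM2 and RRM1 stood highest in MDA-MB-231 cells given 5-FU, TYMP and DPYD separated the cell lines, and TYMS, DUT, RRM1 and RRM2 had their lowest mean in A431 cells given CKI plus doxorubicin.

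The cell lines differed before treatment in transcripts of the enzyme that 5-FU acts on and of the enzyme that degrades it. In untreated MDA-MB-231 libraries TYMS had 149, 112 and 107 CPM, and in untreated A431 libraries 34.8, 36.8 and 36.3 CPM. All A431 values lay below all MDA-MB-231 values, with a log2 difference of -1.72 (SE 0.114, adjusted p = 9.61e-09). DPYD was also lower in A431 cells, at 19.4, 19.5 and 19.5 CPM against 98.7, 82.7 and 83.3 CPM, a log2 difference of -2.13 (SE 0.0929, adjusted p = 1.22e-10).

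Genes of the routes that turn 5-FU into nucleotides were higher in A431 cells. TYMP had 161, 145 and 154 CPM in A431 and 9.87, 14.9 and 17.3 CPM in MDA-MB-231, 11.3-fold higher (log2 3.50, SE 0.151, adjusted p = 1.09e-10), the largest difference of the 9 genes. UMPS was 3.33-fold higher in A431 (107 ± 9.77 against 33.4 ± 5.40 CPM, SD, n = 3, adjusted p = 5.60e-09) and UPP1 1.80-fold (152 ± 4.67 against 87.4 ± 8.33 CPM, adjusted p = 5.80e-07). TK1 and DUT were higher by log2 differences of 0.76 and 0.85, and the groups did not overlap for either gene. The reductase subunits overlapped between the lines, with log2 differences of 0.14 for RRM1 (adjusted p = 0.0909) and -0.05 for RRM2 (adjusted p = 0.675). Of the 9 genes 4 were DE, against 42.9% of all genes tested between the lines, and 7 passed the adjusted p alone, against 78.6%. Without replicate 1 of untreated MDA-MB-231 cells DUT was DE too (log2 1.08), and RRM1 (0.21, adjusted p = 5.15e-04) and RRM2 (0.11, adjusted p = 0.0382) passed as higher in A431.

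Per kilobase, the order of the 9 genes differed between the lines. In untreated MDA-MB-231 cells TK1 had 158 RPKM, followed by TYMS with 76.2, RRM2 with 70.4 and RRM1 with 62.4 RPKM, while TYMP had 8.85 and UMPS 5.02 RPKM. Without replicate 1 these were 176, 68.1, 63.2, 59.9, 10.2 and 4.55 RPKM, in the same order. In untreated A431 cells TK1 had 257 RPKM, followed by TYMP with 96.6, UPP1 with 91.3 and DUT with 85.8 RPKM, and TYMS (22.3), UMPS (16.1) and DPYD (4.40 RPKM) were the lowest.

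The comparison of 5-FU with untreated MDA-MB-231 cells asks how the drug's own pathway changed after 48 h. This line had no vehicle group, so any part of a vehicle in its changes with 5-FU or CKI cannot be told apart. RRM2 rose most and DPYD fell, both DE, and the other genes of deoxynucleotide supply rose by less, apart from DUT. Of the 9 genes 8 passed the adjusted p, 6 up and 2 down, against 57.1% of all genes tested, and 2 were DE, against 13.3%. The median log2 fold change of the 9 was 0.48, against -0.004 over all genes.

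RRM2, the small reductase subunit, had 545, 544 and 569 CPM with 5-FU and 276, 206 and 205 CPM untreated. Every treated library was above every untreated one, 2.41-fold in the fit (log2 1.27, SE 0.0998, adjusted p = 7.11e-07). RRM1 had 375, 368 and 395 CPM with 5-FU against 212, 187 and 189 CPM, a log2 fold change of 0.95 (SE 0.0596, adjusted p = 1.16e-07). Thus transcripts of both subunits of the reductase rose, and the RRM2 group means per kilobase went from 70.4 to 170 RPKM.

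TYMS itself had 163, 155 and 169 CPM with 5-FU and 149, 112 and 107 CPM untreated, a 1.32-fold rise (log2 0.40, SE 0.101, adjusted p = 0.00472). The groups did not overlap, but the highest untreated library, which was the replicate that stood apart, came close to the lowest treated one. TK1, the salvage kinase, had 310, 331 and 304 CPM against 175, 252 and 251 CPM (log2 0.48, SE 0.114, adjusted p = 0.00342). DUT gave 97.5, 92.5 and 96.1 CPM against 135, 95.2 and 85.7 CPM. Its groups overlapped and no change was shown (log2 -0.14, SE 0.129, adjusted p = 0.370).

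Among the genes that act on 5-FU itself, UMPS rose from 33.4 ± 5.40 to 48.5 ± 2.80 CPM (log2 0.54, SE 0.10, adjusted p = 6.18e-04), and UPP1 from 87.4 ± 8.33 to 138 ± 4.52 CPM (log2 0.66, SE 0.0788, adjusted p = 1.95e-05). TYMP, already low in this line, fell from 9.87, 14.9 and 17.3 CPM to 8.51, 8.58 and 6.39 CPM (log2 -0.84, SE 0.186, adjusted p = 0.00207). DPYD fell from 98.7, 82.7 and 83.3 CPM to 43.5, 42.6 and 42.9 CPM. The treated DPYD values lay close together and below every untreated value (log2 -1.04, SE 0.0746, adjusted p = 3.56e-07).

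Without replicate 1 of untreated cells, 3 genes were DE: RRM2 (log2 1.42), RRM1 (1.01) and TYMP (-1.04), and DPYD was just inside the fold limit at -0.95. TYMS then had a log2 fold change of 0.56, TK1 0.33 and DUT 0.08.

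Genes around the 9, taken from lists set for this report, changed in both directions with 5-FU. Of 14 partners in thymidylate and deoxynucleotide metabolism 3 rose and 3 fell, and the DE genes were SHMT2 (mitochondrial serine hydroxymethyltransferase, 317 to 153 CPM, log2 -1.05) and TK2 (mitochondrial thymidine kinase, 25.9 to 11.6 CPM, log2 -1.16). Of 10 salvage, breakdown and transport genes 7 could be tested, where CDA (cytidine deaminase) rose from 26.3 to 53.5 CPM (log2 1.02) and SLC29A2 (a nucleoside transporter) fell from 16.7 to 8.27 CPM (log2 -1.02, with overlapping libraries). UPP2, DPYS and UPB1 were not tested, with at most 18, 13 and 17 counts in any of the 27 libraries. Without replicate 1 of untreated cells SHMT2 was at -1.16, TK2 at -1.23 and SLC29A2 at -1.34, still DE, and CDA at 0.85, no longer DE. Of 4 genes of pyrimidine synthesis 1 rose and 2 fell with none DE, and of 6 folate genes 1 rose and SLC19A1 (the reduced folate carrier) fell from 32, 50 and 86 counts to 9, 9 and 8 counts (log2 -2.73, adjusted p = 2.22e-04). All 4 genes that remove uracil from DNA rose with none DE (UNG, SMUG1, TDG and MBD4, named after their values were seen), with a median log2 fold change of 0.62 and the largest for MBD4 (0.83, 24.5 to 43.6 CPM). The UNG libraries overlapped, with 127 to 161 CPM untreated and 158 to 172 CPM with 5-FU. Of 12 proliferation markers 3 rose and 4 fell, 1 of them DE, and their summed level was 3074 to 3239 CPM untreated and 2874 to 2945 CPM with 5-FU.

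**Figure D2:**
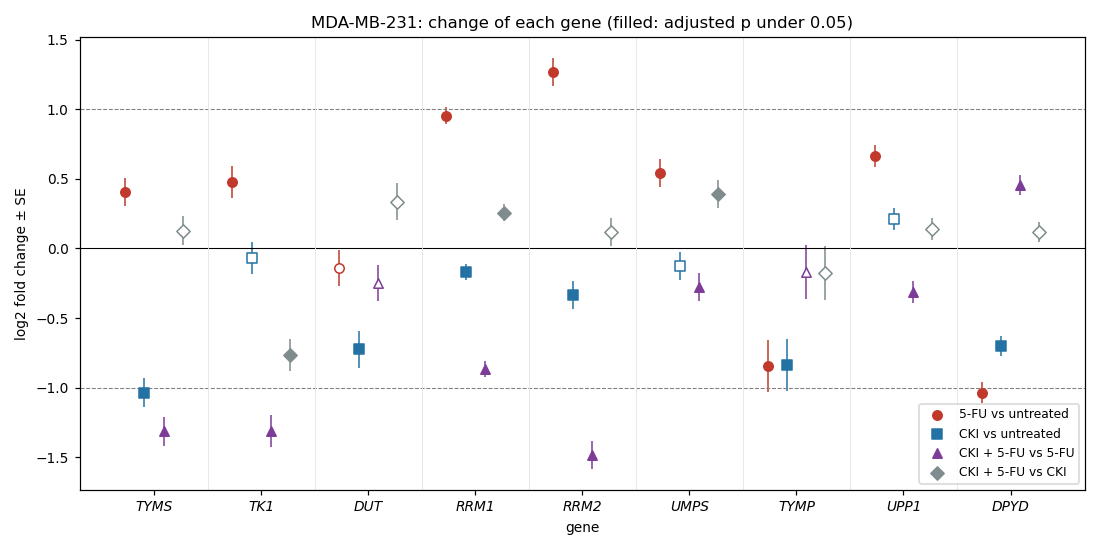
Log2 fold change of the 9 genes (points, with the SE as lines) in 4 comparisons among MDA-MB-231 groups of 3 libraries; filled symbols have an adjusted p under 0.05 and dashed lines mark a log2 fold change of 1 in each direction. RRM2 was at 1.27 with 5-FU and at -1.49 when CKI was added to 5-FU, and DPYD at -1.04 and 0.46.

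CKI alone lowered TYMS in MDA-MB-231 cells and left the other genes within the DE limit. TYMS had 61.5, 60.7 and 58.7 CPM with CKI, all below the 107 to 149 CPM of untreated libraries (log2 -1.04, SE 0.103, adjusted p = 1.57e-05). DPYD fell to 57.2, 52.1 and 54.6 CPM (log2 -0.70, SE 0.0740, adjusted p = 2.36e-05), DUT to 64.1 ± 1.46 CPM (log2 -0.72, adjusted p = 0.00110) and TYMP to 7.92 ± 0.707 CPM (log2 -0.84, adjusted p = 0.00434). The reductase genes fell by less, RRM1 with a log2 fold change of -0.17 (adjusted p = 0.0436) and RRM2 with -0.33 (adjusted p = 0.0200). TK1 (log2 -0.07), UMPS (-0.13) and UPP1 (0.21) did not pass the test. The DE count of 1 of 9 stood against 5.96% of all genes tested, and 6 of 9 past the adjusted p against 36.2%.

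The comparisons of CKI and of 5-FU with untreated cells share the same 3 untreated libraries. Side by side, TYMS was at -1.04 with CKI and 0.40 with 5-FU, RRM2 at -0.33 and 1.27, and DPYD at -0.70 and -1.04 on the log2 scale. With library size alone in place of TMM no gene of the 9 was DE for CKI (TYMS -0.97). Without replicate 1 of untreated cells TYMS was at -0.88 and TYMP, at -1.03, was the DE gene, and TK1 (-0.22, adjusted p = 4.99e-04) and UPP1 (0.29, adjusted p = 1.47e-04) then passed the adjusted p. RRM1 did not pass with the replicate number as a block (adjusted p = 0.0736). UNG, the main uracil-DNA glycosylase, was DE in the same comparison, from 140 to 68.6 CPM (log2 -1.04), as were CDA (log2 1.24) and SLC29A2 (log2 1.22). Without replicate 1 of untreated cells CDA was at 1.07, still DE, and UNG (-0.92) and SLC29A2 (0.91) were not. With all libraries 7 of the 12 proliferation markers fell with none DE (summed level 2503 to 2531 CPM).

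Adding CKI to 5-FU lowered TYMS, TK1 and RRM2 relative to 5-FU alone, each DE. RRM2 had 196, 208 and 188 CPM in the combination against 544 to 569 CPM with 5-FU (log2 -1.49, SE 0.10, adjusted p = 3.88e-07). TYMS had 66.8, 65.8 and 63.6 CPM against 155 to 169 CPM (log2 -1.31, SE 0.103, adjusted p = 1.25e-06). TK1 had 130.3, 118 and 132 CPM against 304 to 331 CPM (log2 -1.31, SE 0.116, adjusted p = 3.05e-06). For none of these genes did the groups overlap.

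RRM1 fell as well (208 ± 3.87 against 380 ± 14.1 CPM, log2 -0.87, adjusted p = 4.39e-07), as did UPP1 (log2 -0.31, adjusted p = 0.00566) and UMPS (log2 -0.28, adjusted p = 0.0362, or 0.0548 with the replicate number as a block). DPYD moved the other way, to 57.9, 61.2 and 57.7 CPM from 42.6 to 43.5 CPM (log2 0.46, SE 0.0745, adjusted p = 3.26e-04). DUT (log2 -0.25) and TYMP (-0.17) did not pass. The 3 DE genes of 9 compared with 9.77% of all genes tested, and 7 of 9 past the adjusted p with 50.4%. Among the listed genes SLC29A2 and SLC19A1 were DE and higher in the combination (log2 1.66 and 1.63, the latter from 8 or 9 counts to 16 to 34 counts a library). Of the 12 proliferation markers 2 were DE downward, and the summed proliferation level was 2091 to 2146 CPM.

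Relative to CKI alone, adding 5-FU left all 9 genes within the DE limit, 0 of 9 against 3.81% of genes tested. At the adjusted p alone 3 of 9 passed, against 42.1%: TK1 fell from 217 ± 4.48 to 127 ± 7.72 CPM (log2 -0.77, SE 0.115, adjusted p = 3.42e-04), RRM1 rose (log2 0.26, adjusted p = 0.00484) and UMPS rose (log2 0.39, adjusted p = 0.00847). RRM2 was at 183 ± 3.78 CPM with CKI and 197 ± 9.92 CPM with the combination (log2 0.12, SE 0.0988, adjusted p = 0.360), and TYMS at 60.3 ± 1.44 and 65.4 ± 1.65 CPM (log2 0.13, SE 0.103, adjusted p = 0.343).

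Whether CKI acted differently with and without 5-FU was tested as an interaction over all 4 groups. It was DE for 3 of 9 genes, against 6.84% of genes tested, and past the adjusted p for 5 of 9, against 31.4%. TK1 (log2 -1.24, SE 0.162, adjusted p = 1.94e-04) and RRM2 (log2 -1.15, SE 0.140, adjusted p = 1.21e-04) had a more negative change with CKI in the presence of 5-FU, and DPYD a more positive one (log2 1.16, SE 0.105, adjusted p = 1.74e-05). RRM1 (-0.70) and UPP1 (-0.52) passed in the negative direction. For TYMS the interaction did not pass (log2 -0.28, SE 0.145, adjusted p = 0.164), but it did without replicate 1 of untreated cells (-0.44, adjusted p = 9.42e-06), where TK1 was at -1.09, RRM2 at -1.31 and DPYD at 1.07. Thus the RRM2 level of the 5-FU group stood alone among the MDA-MB-231 groups, with the other 9 libraries between 180.2 and 276 CPM.

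In A431 cells CKI lowered 7 of the 9 genes and raised TYMP. TYMS had 6.98, 6.47 and 7.48 CPM with CKI, from 34.8 to 36.8 CPM untreated (log2 -2.46, SE 0.0928, adjusted p = 2.60e-16). TK1 went from 354, 342 and 405 CPM to 62.9, 64.8 and 61.8 CPM (log2 -2.63, SE 0.10, adjusted p = 3.05e-16). RRM2 had 45.9, 46.7 and 47.1 CPM against 204, 216 and 223 CPM (log2 -2.30, SE 0.0638, adjusted p = 1.44e-18). For all 3 genes every treated library lay far below every untreated one.

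DUT (184 ± 6.74 to 50.4 ± 1.90 CPM, log2 -1.96), RRM1 (208 ± 9.34 to 69.2 ± 1.75 CPM, log2 -1.68) and UMPS (107 ± 9.77 to 52.0 ± 1.98 CPM, log2 -1.14) were DE downward too, and UPP1 fell without being DE (152 ± 4.67 to 98.3 ± 3.45 CPM, log2 -0.72). TYMP rose from 161, 145 and 154 CPM to 243, 276 and 265 CPM (log2 0.68, SE 0.0778, adjusted p = 5.41e-08). DPYD was at 19.5 ± 0.0396 and 23.4 ± 1.95 CPM and did not pass (log2 0.18, SE 0.105, adjusted p = 0.148). The DE count was 6 of 9, against 22.4% of all genes tested, and 8 of 9 passed the adjusted p, against 67%.

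The proliferation markers moved in the same comparison, all 12 DE downward with a median log2 fold change of -2.17 and a summed level of 3986 to 4231 CPM untreated and 1025 to 1041 CPM with CKI. Their part in the change of the 9 genes was not tested. Of the 14 partners 10 fell (8 DE) and 3 rose. DE genes among them were NME1, a nucleoside diphosphate kinase (125 to 26.4 CPM, log2 -2.33), DTYMK, which phosphorylates thymidylate (117 to 32.2 CPM, log2 -1.95), and NME2 (7.09 to 2.66 CPM, log2 -1.501), whose reads may be shared with its near-identical neighbour NME1. RRM2B, the reductase subunit of resting and stressed cells, rose from 16.9 to 41.2 CPM (log2 1.19), opposite to RRM2, and was named after its values were seen. All 4 genes of pyrimidine synthesis fell, with CAD (log2 -1.68) and DHODH (log2 -1.46) DE, and among folate genes SLC19A1 (log2 -1.65) and MTHFD1 (log2 -1.44) fell. SLC29A1, a nucleoside transporter, fell from 224 to 82.2 CPM (log2 -1.54) and UNG from 93.7 to 39.1 CPM (log2 -1.35).

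**Figure D3:**
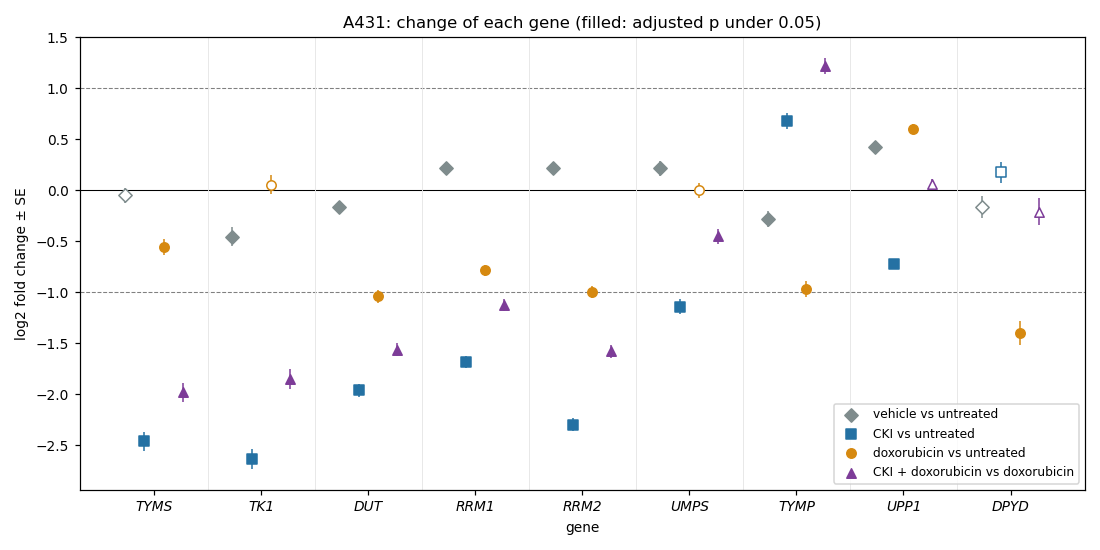
Log2 fold change of the 9 genes (points, with the SE as lines) in 4 comparisons among A431 groups of 3 libraries; filled symbols have an adjusted p under 0.05 and dashed lines mark a log2 fold change of 1 in each direction. CKI placed TYMS, TK1, DUT, RRM1, RRM2 and UMPS below -1, TYMP rose with CKI alone (0.68) and over doxorubicin (1.22), and no vehicle value reached 1 in either direction.

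The vehicle control differed from untreated A431 cells for 7 of 9 genes by adjusted p (42.5% of all genes tested) and for 0 of 9 by the DE limit (2.54%), with TYMS at log2 -0.05 (adjusted p = 0.645). The largest were TK1, at 216, 266 and 317 CPM against 342 to 405 CPM (log2 -0.45, adjusted p = 4.86e-04), and UPP1, at 202, 197 and 208 CPM against 147 to 156 CPM (log2 0.42, adjusted p = 1.81e-06). Vehicle replicates 1 and 3 deviated from their group with gene GC content (rank correlations of -0.59 and 0.65), and TK1 was lowest in replicate 1 and highest in replicate 3. With offsets for GC content and length TK1 was at -0.02 (adjusted p = 0.849), TYMP turned from -0.28 to 0.04 and UPP1 kept its rise. With the vehicle as the control, CKI gave 7 DE genes of the 9, UPP1 (log2 -1.144) among them. DPYD then rose with CKI (log2 0.34, adjusted p = 0.00711).

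The effect of CKI differed between the lines for all 9 genes by the adjusted p (47% of all genes tested) and for 7 by the DE limit (18.5%). The change with CKI was more negative in A431 for TK1 (log2 -2.56), RRM2 (-1.95), RRM1 (-1.51), TYMS (-1.41), DUT (-1.22), UMPS (-1.002) and UPP1 (-0.92), and more positive for TYMP (1.52) and DPYD (0.88). The smallest SE among these was 0.102 (RRM1) and the largest 0.206 (TYMP), and the adjusted p ranged from 1.07e-07 (TK1) to 1.48e-04 (DUT). TK1 shows the contrast in its levels: 217 ± 4.48 CPM with CKI and 226 ± 44.1 CPM without in MDA-MB-231, but 63.2 ± 1.51 and 367 ± 33.6 CPM in A431. Without replicate 1 of untreated MDA-MB-231 cells 8 genes were DE, UPP1 (-1.016) among them, with UMPS at -1.15, TYMS at -1.59, TK1 at -2.41, DUT at -1.46, RRM1 at -1.58, RRM2 at -2.12 and TYMP at 1.71, and DPYD at 0.79 was not. Of the 12 proliferation markers 11 were DE in the same interaction with all libraries, all more negative in A431.

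Doxorubicin in A431 cells lowered 6 of the 9 genes and raised UPP1, with 80.6% of all genes tested passing the adjusted p and 37.3% DE. DPYD (7.14, 6.15 and 9.24 CPM against 19.4 to 19.5 CPM, log2 -1.40, SE 0.119, adjusted p = 2.85e-10) and DUT (91.0, 88.4 and 94.0 CPM against 176 to 189 CPM, log2 -1.04, SE 0.0615, adjusted p = 4.53e-13) were the DE genes, 2 of 9. RRM2 (109 ± 3.04 CPM, log2 -0.998, just under the limit in size), TYMP (79.9 ± 5.09 CPM, log2 -0.97), RRM1 (123 ± 2.60 CPM, log2 -0.79) and TYMS (24.9 ± 2.23 CPM, log2 -0.56) fell without being DE. UPP1 rose to 234, 234 and 238 CPM from 147 to 156 CPM (log2 0.60, SE 0.0515, adjusted p = 3.25e-10). TK1, at 389 ± 24.9 CPM, and UMPS, at 109 ± 1.90 CPM, overlapped the untreated libraries (log2 0.06 and 0.00, adjusted p = 0.589 and 0.993). With the vehicle as the control TK1 rose with doxorubicin (log2 0.508, adjusted p = 2.96e-05) and UMPS fell (-0.214, adjusted p = 0.01). DPYD (-1.235), RRM2 (-1.215) and RRM1 (-1.005) were the DE genes against the vehicle, and DUT (-0.876) was not DE.

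The doxorubicin values depended on scaling more than the others, since library size alone moved the median of all genes by 0.34 on the log2 scale. UMPS was then higher with doxorubicin (0.35, adjusted p = 1.04e-04), as it was with the filter of 10 counts in every library (0.17, adjusted p = 0.0406). With library size alone the median over all genes was itself 0.36, so UMPS lay close to that median. The DE count of the 9 ran from 1 to 4, since RRM2, TYMP and DUT lay near the limit, with 4 when replicate 2 of the untreated cells or replicate 2 of the doxorubicin cells was left out.

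Among listed genes, SLC19A1 fell with doxorubicin from 560, 579 and 570 counts to 15, 10 and 9 counts (log2 -5.91), a larger change than that of any of the 9. The 14 partners included 12 that fell, with DTYMK (log2 -1.26), NME1 (-1.25) and SHMT2 (-1.18) among the DE genes, and SAMHD1, which degrades deoxynucleotides, was DE upward (59.5 to 178 CPM, log2 1.56). All 4 genes of pyrimidine synthesis fell, DHODH most (log2 -1.72). The folate genes MTHFD1 (log2 -1.81) and FPGS (-1.12) fell, and of the proliferation markers 11 of 12 fell, 2 of them DE (summed level 2700.1 to 2721 CPM). UPP2, with 18, 12 and 5 counts against 0, 2 and 0, and DPYS, with 4, 10 and 1 counts against 0 in every untreated library, were too low for a fold.

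Adding CKI to doxorubicin lowered the thymidylate and deoxynucleotide genes again. TYMS had 6.77, 5.92 and 5.95 CPM in the combination against 22.4 to 26.6 CPM with doxorubicin (log2 -1.98), TK1 112, 102 and 105 CPM against 362 to 411 CPM (log2 -1.85), RRM2 36.5, 35.7 and 36.3 CPM against 106 to 111 CPM (log2 -1.58), DUT 30.4 ± 1.603 CPM (log2 -1.56) and RRM1 55.7 ± 1.26 CPM (log2 -1.13), each with an adjusted p of at most 2.31e-13. No combination library overlapped a doxorubicin library for these 5 genes. TYMP was DE upward, with 188, 184 and 178 CPM against 75.8 to 85.6 CPM (log2 1.22, SE 0.0797, adjusted p = 8.51e-12). UMPS fell (log2 -0.45, adjusted p = 1.28e-05), and UPP1 (242 ± 2.89 against 235 ± 2.46 CPM, log2 0.06) and DPYD (log2 -0.21) did not pass. The DE count was 6 of 9 against 14.9% of all genes tested, and 7 of 9 passed the adjusted p against 63.6%. All 12 proliferation markers were DE downward here too (median log2 -1.54, summed level 884 to 920 CPM), and UNG was DE (log2 -1.53).

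The interaction of CKI and doxorubicin was positive for 8 of 9 genes by the adjusted p (57.4% of all genes tested) and DE for 0 of 9 (19.5%). It was largest for TK1 (log2 0.79, SE 0.134, adjusted p = 2.87e-05) and UPP1 (0.78, SE 0.0731, adjusted p = 5.24e-09), and DPYD was the exception (-0.38, adjusted p = 0.0595). With doxorubicin in both groups, CKI left TYMS at 0.254 of its level in the fit, compared with 0.182 without it, and the difference of these changes was 0.48 on the log2 scale (adjusted p = 0.00471).

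**Figure D4:**
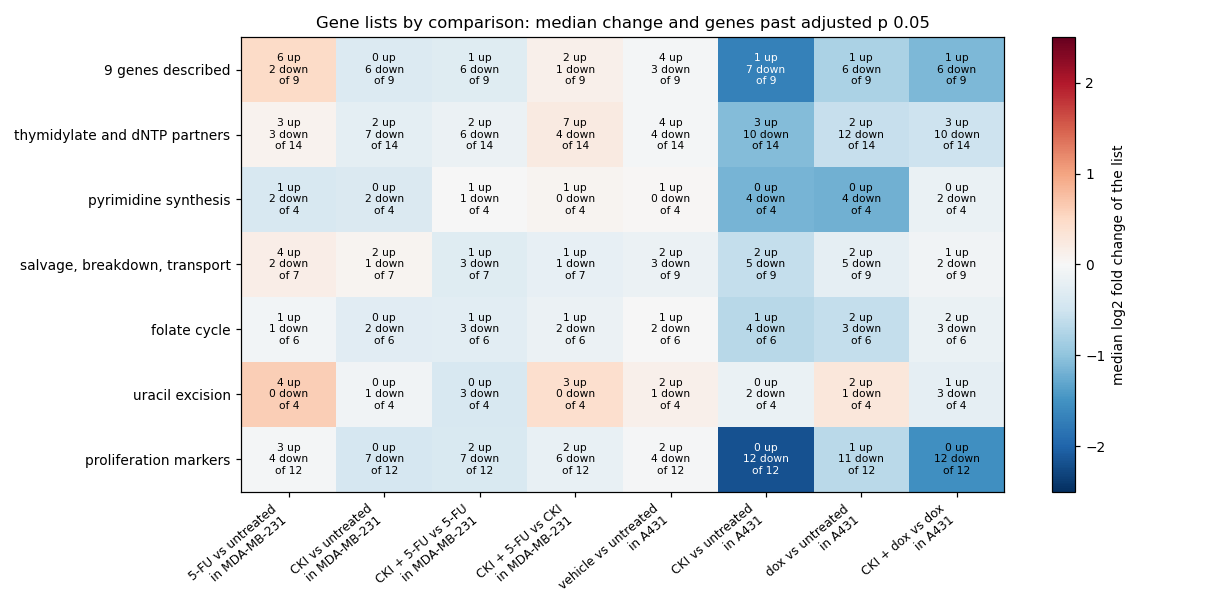
Median log2 fold change (colour) of the 9 genes and of 6 gene lists in 8 comparisons, with the number of genes that rose and fell by adjusted p and the number tested in each cell. The proliferation markers fell 12 of 12 with CKI in A431 cells and over doxorubicin, the 4 genes of uracil excision all rose with 5-FU, and the 9 genes fell 7 of 9 with CKI in A431 cells.

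Over the 9 groups TYMS ranked from 163 CPM in MDA-MB-231 cells with 5-FU, through 123, 65.4 and 60.3 CPM in untreated, combination and CKI groups of that line, to 36.0, 34.5, 24.9, 6.98 and 6.21 CPM in untreated, vehicle, doxorubicin, CKI and combination groups of A431. Neighbours in this order overlapped only between untreated and vehicle, and between CKI and the combination, in A431. DPYD had the same split by line, from 42.6 to 98.7 CPM in MDA-MB-231 libraries and from 5.90 to 24.8 CPM in A431 libraries. TYMP was reversed, with 6.39 to 17.3 CPM in MDA-MB-231 and 75.8 to 276 CPM in A431. RRM2 was highest with 5-FU (553 CPM), followed by 4 groups whose neighbours overlapped, from 247 CPM (vehicle) to 197 CPM (CKI plus 5-FU). UPP1 was highest with CKI plus doxorubicin (242 CPM) and doxorubicin (235 CPM), whose libraries did not overlap, and the lowest 4 groups overlapped their neighbours between 111 and 87.4 CPM.

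Likeness of pattern was measured as the root mean square difference of log2 CPM over the 9 group means, each gene centred on its own mean, among 13365 genes that passed the filter in both lines. The genes nearest to TYMS were NCAPG (0.34), RNASEH2A (0.43), P2RX5 (0.43), PHF19 (0.44) and SKA3 (0.46), against a median of 1.595 over all genes. TK1 was nearest to TROAP (0.15), HROB (0.25), PCLAF (0.32), KIF22 (0.32) and FAM111B (0.33), with a median of 1.04. UPP1 was nearest to ZNF268 (0.15), GTPBP8 (0.16), MRPL46 (0.16), LSG1 (0.16) and SEC11C (0.18), with a median of 0.81. Among the 9 genes the closest pairs were RRM1 with RRM2 (0.344) and UMPS with UPP1 (0.402). TYMS was at 0.61 from RRM2, and DUT at 0.55 from RRM1.

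How reads in overlapping exons were assigned is not given in the sources used here, so reads from overlapping genes cannot be told apart. TYMS shares 967 exonic bases, 39.9% of its exonic length, with ENOSF1 on the opposite strand (chr18:670318-712662). ENOSF1 had 27.9, 28.6 and 28.9 CPM in untreated MDA-MB-231 cells and 15.4, 14.6 and 15.7 CPM with 5-FU (log2 -0.90, adjusted p = 1.89e-06), where TYMS rose. In A431 cells it went from 44.1, 42.1 and 30.1 CPM to 15.4, 15.9 and 17.4 CPM with CKI (log2 -1.35), above the TYMS level of 6.47 to 7.48 CPM. The part of shared reads in these TYMS values was not tested. TYMP shares 10.0% of its exonic length with SCO2 and 9.0% with ODF3B on the same strand, and SCO2 had 11.1 to 22.5 CPM over the 27 libraries. In A431 cells SCO2 was at a log2 fold change of -0.18 with CKI (adjusted p = 0.0711), where TYMP rose, and at -0.64 with doxorubicin and -0.45 with the vehicle, where TYMP fell. DPYD shares 6.9% with the non-coding MIR137HG.

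**Figure D5:**
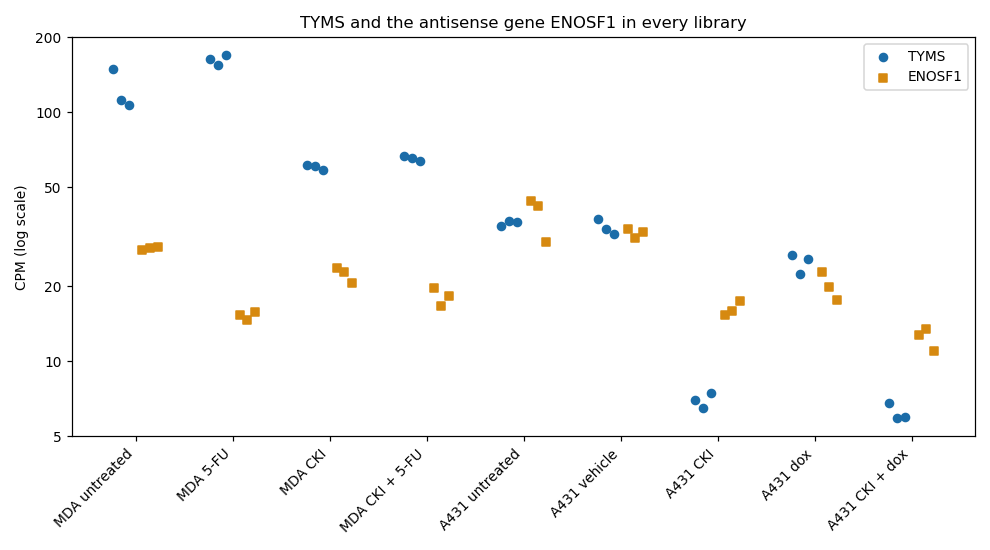
TYMS (blue circles) and its antisense neighbour ENOSF1 (orange squares) in CPM on a log axis in 27 libraries of 9 groups. TYMS was above ENOSF1 in all MDA-MB-231 libraries and below it in all A431 libraries given CKI alone (6.47 to 7.48 against 15.4 to 17.4 CPM) or with doxorubicin (5.92 to 6.77 against 10.998 to 13.5 CPM).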

How the data were processed

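RNA-seq was run on 27 libraries of 2 human cell lines. The authors deposited 1 table of whole-number counts per Entrez gene (24566 rows, of which 24422 have a symbol and 1597 no count in any library). The submitters' processing notes name Trim Galore 0.3.7, STAR 2.5.3a, edgeR and hg19; the counting tool and annotation are not given in the sources used here. Every count column matched a sample title, and the table holds no comparisons by the authors.

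Counts were fitted with edgeR 4.0.16 (R 4.3.3, limma 3.58.1): default low-count filter on the groups of the fit, TMM factors, quasi-likelihood F-test and Benjamini-Hochberg adjustment over all genes. One fit held the 4 MDA-MB-231 groups (13999 genes), another the 5 A431 groups (15881 genes) and the last the untreated and CKI groups of both lines (14848 genes). All 9 genes passed each filter. CPM used TMM factors over 27 libraries, log2 CPM a prior count of 2, and RPKM the canonical GENCODE transcript length. Genes were called DE at an adjusted p under 0.05 and an absolute log2 fold change above 1. The steps were tested on simulated data. Alternatives were DESeq2 1.42.0, RLE factors, library size alone, other filters, fewer groups, a replicate block, GC and length offsets, the vehicle as control, the adjusted p alone and each replicate left out.

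The 9 genes and the gene lists were chosen with earlier results of these data known. Beside the 9 genes, the text names from each list at most the 4 DE genes of largest change in a comparison, the overlapping genes and the 5 genes most like TYMS, TK1 and UPP1, and says where another gene was named after its values were seen. Some genes that this rule would name are not reported here. Same-numbered libraries shared no strong signal: their deviations correlated at -0.24 to 0.12, and in 0 of 8 comparisons was every pair above 0.1. These values cannot show whether such libraries were handled together, and the main fits did not pair them. Replicate counts differed by more than sampling noise, with a chi-square per degree of freedom of at least 1.96. The submitters call the replicates biological, but the sample labels do not name separate cultures, so p-values measure the spread between these libraries, which may be partly technical.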

Additional observations from a re-analysis of the deposited data

Results flagged for a closer look

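In 10 cases the effect of CKI on 1 of the 9 genes differed between conditions (edgeR interaction term, adjusted p under 0.05). The estimated difference in each case was more than 1 on the log2 scale, and the test was against no difference, not against 1. With and without 5-FU in MDA-MB-231 cells, the difference was -1.244 for TK1, -1.152 for RRM2 and 1.157 for DPYD. Between A431 and MDA-MB-231 cells, it was -1.413 for TYMS, -2.559 for TK1, -1.224 for DUT, -1.506 for RRM1, -1.952 for RRM2, -1.002 for UMPS and 1.519 for TYMP, where a negative value means a lower change in A431. TK1 and RRM2 thus appear in both sets. Each comparison rests on 3 libraries a group, and replicate 1 of untreated MDA-MB-231 cells enters both. Without that library TK1 was at -1.09, RRM2 at -1.31 and DPYD at 1.07 in the first set, and UMPS, nearest to the limit, at -1.15 in the second.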

How the results depend on the processing

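Over the alternatives, 1696 results for single genes stayed on their side of the adjusted p limit, 59 newly passed, 40 no longer passed and 5 changed sign. A change of sign was not counted where neither fit passed. UMPS with CKI in MDA-MB-231 was such a case (-0.128, and 0.013 without replicate 1 of untreated MDA-MB-231 cells). Crossing the DE limit was not counted here either. With the adjusted p alone, the number of the 9 genes called was 8 for 5-FU, 6 for CKI in MDA-MB-231, 7 for CKI plus 5-FU over 5-FU, 3 over CKI, 5 for their interaction, 7 for the vehicle, 7 for doxorubicin, 8 for CKI by doxorubicin and 7 between the lines. CKI in MDA-MB-231 gave 0 DE genes with library size alone. Doxorubicin gave 1 with RLE factors, library size alone, at least 10 counts in every library, DESeq2 or only the groups compared, and 4 without a filter. UMPS with doxorubicin turned to 0.35 with library size alone and 0.17 with at least 10 counts in every library, TYMP with the vehicle to 0.038 with GC and length offsets, with and without the replicate block, and RRM2 between the lines to 0.11 without replicate 1 of untreated MDA-MB-231 cells, in a leave-one-out range of -0.164 to 0.114. The cause was not tested.

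Leaving out each replicate gave 2 to 3 DE genes for 5-FU, 2 to 4 for doxorubicin, 4 to 5 between the lines and 6 to 8 for the line by CKI interaction, and the main count in the other 8 comparisons. The replicate block left the DE count at 2 for 5-FU and changed it in no comparison, but RRM1 with CKI in MDA-MB-231 (-0.17, adjusted p = 0.0736) and UMPS with CKI plus 5-FU over 5-FU (-0.27, adjusted p = 0.0548) no longer passed. Library size alone moved the median of all genes by 0.13 for 5-FU, 0.11 for CKI in A431, 0.34 for doxorubicin, -0.14 for CKI by doxorubicin and -0.13 between the lines.

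Requiring 10 counts in every library tested fewer genes and lowered the DE genes among all tested from 835 to 504 for CKI in MDA-MB-231, 1368 to 903 and 533 to 340 for the combination over 5-FU and over CKI, 404 to 174 for the vehicle, 5925 to 3197 for doxorubicin, 2369 to 1431 for CKI plus doxorubicin over doxorubicin and 6367 to 3631 between the lines. GC and length offsets gave 347 for the combination over CKI and 268 for the vehicle (341 and 261 with the block), and only the groups compared 263 for the vehicle.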
